A study of Mus musculus with 172 samples.

Results

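The enzymes that conjugate xenobiotics, bile pigments and hormones in mouse liver were followed through sleep deprivation (SD) and across the BXD panel. They were taken by gene symbol: every glutathione S-transferase (Gst), UDP-glucuronosyltransferase (Ugt) and sulfotransferase (Sult) gene listed in the Ctr and SD liver tables was included, which gave 45 genes of the 14107 listed, namely 20 Gst, 18 Ugt and 7 Sult genes. The GENCODE vM1 annotation of mm9 holds 60 symbols of this form, and the remaining ones were not analysed here. RNA was measured in male mice of 11 to 14 weeks, kept awake for 6 h by gentle handling from light onset (SD) or left undisturbed (Ctr), and sampled 6 h after light onset, so the conditions share age and clock time. Each library is a pool of equal RNA amounts from 3 mice of a line and condition, fewer in BXD79, BXD85 and BXD101, and therefore holds no estimate of the spread between mice. Per condition, 39 liver pools were used: 33 BXD/RwwJ recombinant inbred lines, which are fixed mosaics of the C57BL/6J (B6) and DBA/2J (D2) genomes and carry no engineered allele, 2 pools of B6 (B61, B62), 2 pools of D2 (DB1, DB2), and the reciprocal F1 hybrids BD and DB. BXD96, BXD97 and BXD103 are labelled 48a, 65a and 73b, as sublines of BXD48, BXD65 and BXD73, which are also among the 33 lines. How far they share a genome was not tested, and the line effect and counts of lines below treat all 33 as separate. Pools 1 and 2 of a parental strain were sampled at the start and the end of data collection. Pools of 4 BXD/TyJ lines entered only as an alternative.

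Conjugation makes lipophilic molecules soluble enough to leave in bile or urine. Gst enzymes attach the tripeptide glutathione to electrophiles, Ugt enzymes transfer glucuronic acid from UDP-glucuronic acid to bilirubin, bile acids, steroids and drugs, and Sult enzymes transfer sulfate from the donor PAPS to phenols, catecholamines, steroids and thyroid hormone. In hepatocytes these genes are known targets of the nuclear receptors CAR (Nr1i3) and PXR (Nr1i2), of the aryl hydrocarbon receptor (Ahr) and of the antioxidant factor Nrf2 (Nfe2l2), and many of them follow the feeding and clock cycle.

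Values are log2 CPM as deposited, that is reads of a gene scaled to the size of the library on a log2 scale, and a difference of 1 stands for a doubling. Liver libraries held 5034166 to 8269401 counted reads in Ctr and 4681101 to 8009362 in SD. The 6 hepatocyte markers were all listed, with a summed level of 2141 to 3566 CPM in Ctr pools and 2159 to 3254 CPM in SD pools, and none was called after SD. All 4 B cell markers were lower after SD (summed level 6.45 to 26.4 CPM in Ctr and 2.30 to 12.7 CPM in SD) and 3 of 4 liver endothelium markers were higher (summed level 139 to 426 CPM in Ctr and 178 to 467 CPM in SD). Of the stellate markers 1 of 3 was lower, of the periportal markers 1 of 6 was higher and 1 lower, and none of the listed Kupffer, cholangiocyte, erythroid and pericentral markers was called. Of 5 exocrine pancreas markers only Cela2a was listed, at up to 7.64 CPM. In bulk tissue, fewer cells of a type and less RNA per cell cannot be told apart, and the part of these cells in the results below was not tested.

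A property of these liver libraries bears on the conjugation enzymes more than on most genes. The mean number of reads per exonic base, over bases that belong to 1 gene only, reached 1.25 in Gsta3, 1.10 in Gstz1 and 1.08 in Gstm1, and 13 of the 45 genes lay at or above 0.6, against 617 of the 13185 genes with a value. For sparsely read genes (up to 0.01 reads per base) the reads of a gene rose steeply with the library total, with a median slope of 1.92 on log scales, whereas for the densest genes (over 0.8) the slope was 0.234. Where every gene gains reads in proportion to the total, this slope is 1. The F1 pool DB in Ctr, which had the lowest total of the Ctr pools, was the highest Ctr pool for 24 of the 45 genes, and BXD70, lowest in total among SD pools, was the highest SD pool for 17. The log2 CPM of densely read enzymes thus went down as the library total went up, and the share of genes that each comparison called moved with read density, as the plot of calls by read density shows. The part of this in each result was not tested, and results are given below also with the log2 library total as a covariate, an alternative chosen after the data had been seen.

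**Figure D1:**
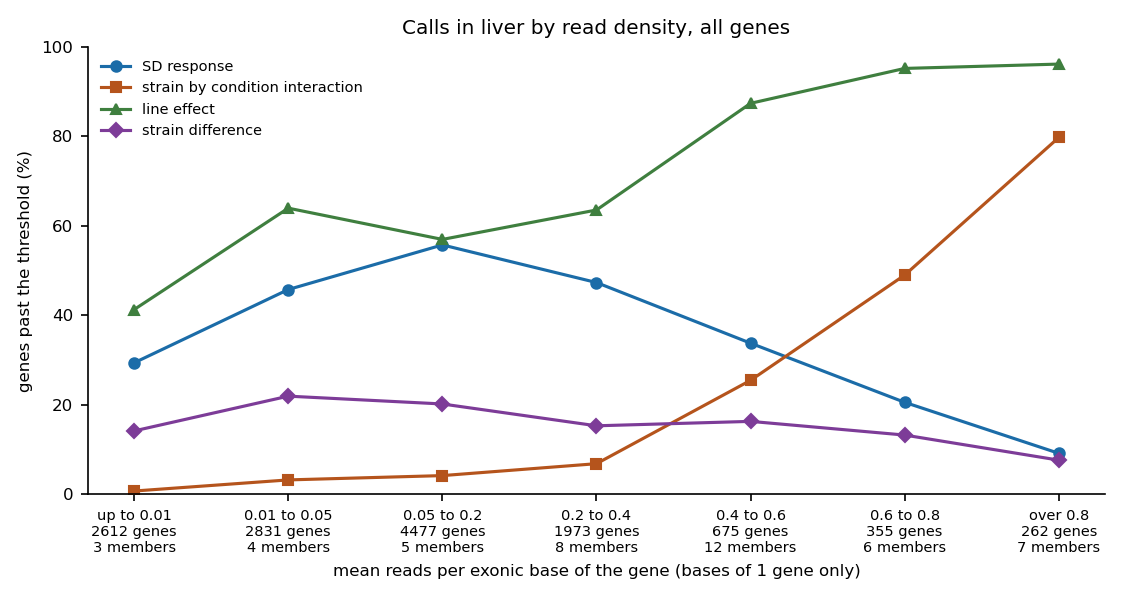
Percent of all liver genes past an adjusted p of 0.05 (y axis) in 7 classes of mean reads per exonic base (x axis), with the number of genes and of Gst, Ugt and Sult genes in each class. From the sparsest to the densest class the SD response goes from 29.4% to 9.16% by way of 55.8% in the middle, and the strain by condition interaction from 0.727% to 79.8%.

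Scaled to length (mean CPM per kilobase of bases that belong to 1 gene, Ctr pools), the highest measured values were those of some Gst genes. Gsta3, an alpha class enzyme, stood at 189, Gstz1, which also isomerises maleylacetoacetate in tyrosine breakdown, at 166, Gstm1 of the mu class at 162, Gstk1 at 144 and Gstp1 at 136. Among Ugt genes Ugt2b1 led with 135, followed by Ugt2b36 with 127 and Ugt2a3 with 120, and among Sult genes Sult1a1, a phenol sulfotransferase, led with 113. These genes had 0.769 to 1.25 reads per base, a range where reads rose less than in proportion to the library total. Their order, and that of the families, was not tested. At the low end were Gsto2 (0.668), Ugt1a2 (0.707), Ugt1a7c (0.769) and Sult1e1 (2.42). In log2 CPM, without scaling to length, Gstt1 and Gstm4 with Ctr medians of 7.18 and 7.11 were also among the 5 highest Gst genes, Ugt2b34 (8.37) and Ugt2b35 (8.23) among the 5 highest Ugt genes, and Sult1d1 (7.44), Sult1b1 (6.72), Sult5a1 (6.01) and Sult1c2 (5.14) among the 5 highest Sult genes. Summed over the family, Gst genes took 2304 CPM in Ctr and 2283 CPM in SD on average, Ugt genes 2393 and 2361 CPM, and Sult genes 567 and 573 CPM. These differences were small beside the range over Ctr pools, which was 2016 to 3026 CPM for Gst, 1997 to 3185 CPM for Ugt and 415 to 722 CPM for Sult genes.

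The first comparison asks which of these enzymes changed with SD. The count depended on the fit, as given further below. In the fit without a term for the line or the library total, 7 of 45 passed an adjusted p of 0.05 (limma), 3 higher and 4 lower. Of all liver genes 44.2% passed, 21.5% higher and 22.6% lower. The median log2 fold change was -0.0148 over the 45 genes and -0.0015 over all genes. Higher after SD were Ugt2b37, Ugt2b38 and Sult1d1, and lower were Sult1c2, Sult2a7, Ugt2b35 and Gstm4, so 1 of 20 Gst, 3 of 18 Ugt and 3 of 7 Sult genes were called. None of the 13 genes with at least 0.6 reads per base was called, where 15.7% of the 617 genes of that density were, and 7 of the other 32 were, where 45.5% of the other 13490 genes, those without a density included, were. These other genes were not matched in density. By finer class, 3 of 12 were called at 0.4 to 0.6 reads per base (33.8% of all genes) and 0 of 8 at 0.2 to 0.4 (47.3%). Sparser classes had 3 of 5 at 0.05 to 0.2 (55.8%), 1 of 4 at 0.01 to 0.05 (45.8%) and 0 of 3 below that (29.4%).

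**Figure D2:**
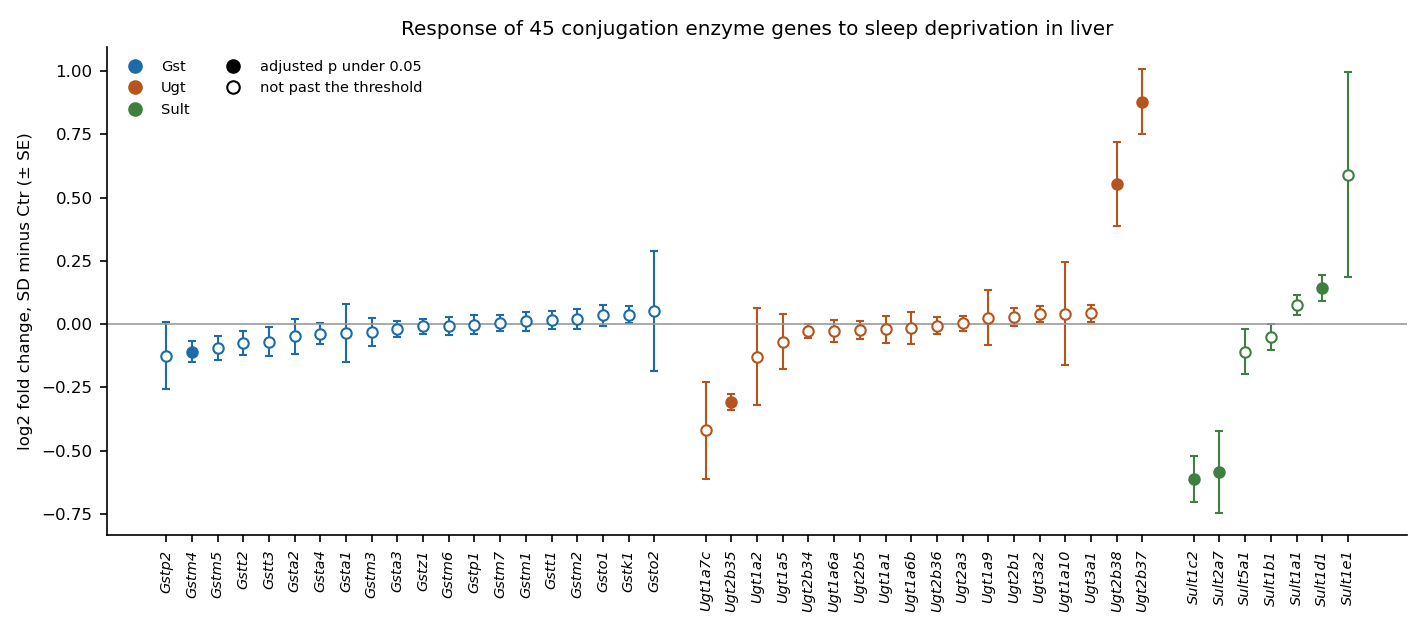
Log2 fold change (SD minus Ctr, y axis) with its SE for each of the 45 genes (x axis), ordered within families, from 39 pools per condition. Filled points passed an adjusted p of 0.05, and the 6 of them in the Ugt and Sult families lie farther from 0 than Gstm4, while Ugt1a7c and Sult1e1 have wide errors and open points.

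Of the called genes, Ugt2b37 and Ugt2b38, of the chromosome 5 cluster that conjugates steroids and bile acids, showed the largest rises. Ugt2b37 ran from 1.40 (median 2.99) to 3.94 log2 CPM over the Ctr pools and from 2.37 (median 3.94) to 4.71 over the SD pools. It was higher after SD in 36 of 39 pools, by 0.88 ± 0.13 (log2 fold change ± SE, limma adjusted p = 1.50e-08), although the ranges of the conditions overlapped. Ugt2b38 ran from 1.62 (median 5.60) to 6.49 in Ctr and from 4.10 (median 5.83) to 6.71 in SD, and was higher in 33 of 39 pools, by 0.55 ± 0.17 (adjusted p = 0.00444). The median pool changed by 0.90 in Ugt2b37 and 0.53 in Ugt2b38. In Ugt2b38 the BXD71 (1.62) and BXD51 (2.67) Ctr pools were the lowest, and they reached 4.10 and 5.38 after SD. BXD71 and BXD51 were also the lowest Ctr pools of Ugt2b37, at 1.40 and 1.54. Without BXD71 the log2 fold change was 0.50 for Ugt2b38 and 0.87 for Ugt2b37, and both stayed past the threshold. Ugt2b37 had few reads (79.3 per library on average, against 362 for Ugt2b38).

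Ugt2b5, another member of this cluster, did not pass the test. It ran from 7.42 (median 7.68) to 8.08 log2 CPM in Ctr and from 7.41 (median 7.66) to 8.22 in SD, with a log2 fold change of -0.02 ± 0.03 (adjusted p = 0.612). Its reads were dense (0.728 per base, against 0.192 in Ugt2b38 and 0.0419 in Ugt2b37), and with the library total as a covariate it was called lower, by -0.04 ± 0.01 (adjusted p = 7.96e-05). In mm9 Ugt2b37 lies on chromosome 5 at 87669518 to 87683829, Ugt2b38 at 87838967 to 87853228 and Ugt2b5 at 87553981 to 87569365, all on the minus strand. Their transcripts are alike: 24.2% of the 100-base windows of Ugt2b38 and 24.3% of those of Ugt2b5 occur in another gene, mostly in each other, against 1.06% for Ugt2b37. Reads that match both genes equally cannot be assigned, so the levels of Ugt2b38 and Ugt2b5 are uncertain to that extent.

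The stretches before their start sites are shown because the genes that rose and the gene that did not are also close relatives there. These are the 250 bases upstream of the RefSeq start, in GRCm38.p6 and on the strand of the gene, at chr5:87424204-87424453 for Ugt2b38, chr5:87254789-87255038 for Ugt2b37 and chr5:87140341-87140590 for Ugt2b5. Capitals mark bases that have no matching base in Ugt2b38 in a global alignment, ends included.
Ugt2b38: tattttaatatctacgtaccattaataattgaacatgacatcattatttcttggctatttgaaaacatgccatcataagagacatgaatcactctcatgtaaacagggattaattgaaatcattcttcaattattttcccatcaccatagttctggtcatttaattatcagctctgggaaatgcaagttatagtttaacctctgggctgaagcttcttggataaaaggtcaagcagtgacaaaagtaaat
Ugt2b37: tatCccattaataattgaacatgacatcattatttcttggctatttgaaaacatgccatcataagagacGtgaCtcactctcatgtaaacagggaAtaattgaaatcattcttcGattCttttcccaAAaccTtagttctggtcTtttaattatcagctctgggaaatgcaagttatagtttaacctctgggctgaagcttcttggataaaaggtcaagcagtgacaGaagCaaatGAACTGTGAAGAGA
Ugt2b5: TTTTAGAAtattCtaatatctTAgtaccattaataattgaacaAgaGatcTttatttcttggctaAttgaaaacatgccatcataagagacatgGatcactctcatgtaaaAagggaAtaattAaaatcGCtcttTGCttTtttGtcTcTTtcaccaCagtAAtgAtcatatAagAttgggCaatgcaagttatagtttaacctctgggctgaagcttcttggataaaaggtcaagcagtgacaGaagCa
Ugt2b38 and Ugt2b37 match in 224 of 250 bases, Ugt2b38 and Ugt2b5 in 212, and Ugt2b37 and Ugt2b5 in 199, where the median over the 780 pairs among the 40 genes with a promoter in the table is 128.5. Ugt2b37 and Ugt2b38 are the closest pair of all, ahead of Gstp1 with Gstp2 (207), Ugt1a9 with Ugt1a10 (188) and Gsta1 with Gsta2 (184).

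Ugt2b35, on the plus strand of the same cluster (mm9 chromosome 5, 87429885 to 87442299), went the other way. It ran from 7.93 (median 8.23) to 8.62 log2 CPM in Ctr and from 7.61 (median 7.94) to 8.22 in SD, and was lower after SD in 38 of 39 pools, by -0.31 ± 0.03 (adjusted p = 6.64e-14). Its reads per base (0.554) were in the range where 33.8% of all genes were called. The standard deviation of the change over pools was 0.145 (log2), near that of genes that were not called, such as Gstz1 (0.136) and Ugt3a2 (0.146).

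Among sulfotransferases the falls were larger. Sult1c2 ran from 4.61 (median 5.14) to 5.90 in Ctr and from 3.57 (median 4.52) to 5.41 in SD, and was lower in 36 of 39 pools, by -0.61 ± 0.09 (adjusted p = 2.20e-08). Sult2a7, of the family that sulfates hydroxysteroids and bile acids, ran from 1.82 (median 3.16) to 4.94 in Ctr and from 1.70 (median 2.55) to 4.95 in SD, and was lower in 32 of 39 pools, by -0.58 ± 0.16 (adjusted p = 0.00176). In both genes the conditions overlapped, while 3 and 7 pools moved the other way. Sult2a7 had 62.7 reads per library on average, and how much of its sequence occurs in other genes was not determined. Sult1d1, which sulfates catecholamines, was higher in 30 of 39 pools, by 0.14 ± 0.05 (adjusted p = 0.0151), from a Ctr median of 7.44 to 7.54. Gstm4 was the 1 Gst gene called. It ran from 6.68 to 7.51 in Ctr and from 6.63 to 7.43 in SD, and was lower in 32 of 39 pools, by -0.11 ± 0.04 (adjusted p = 0.0241). It was no longer past the threshold with median-centred libraries (-0.10, adjusted p = 0.0603) or in the 33 BXD/RwwJ lines alone (-0.09, adjusted p = 0.0739).

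**Figure D3:**
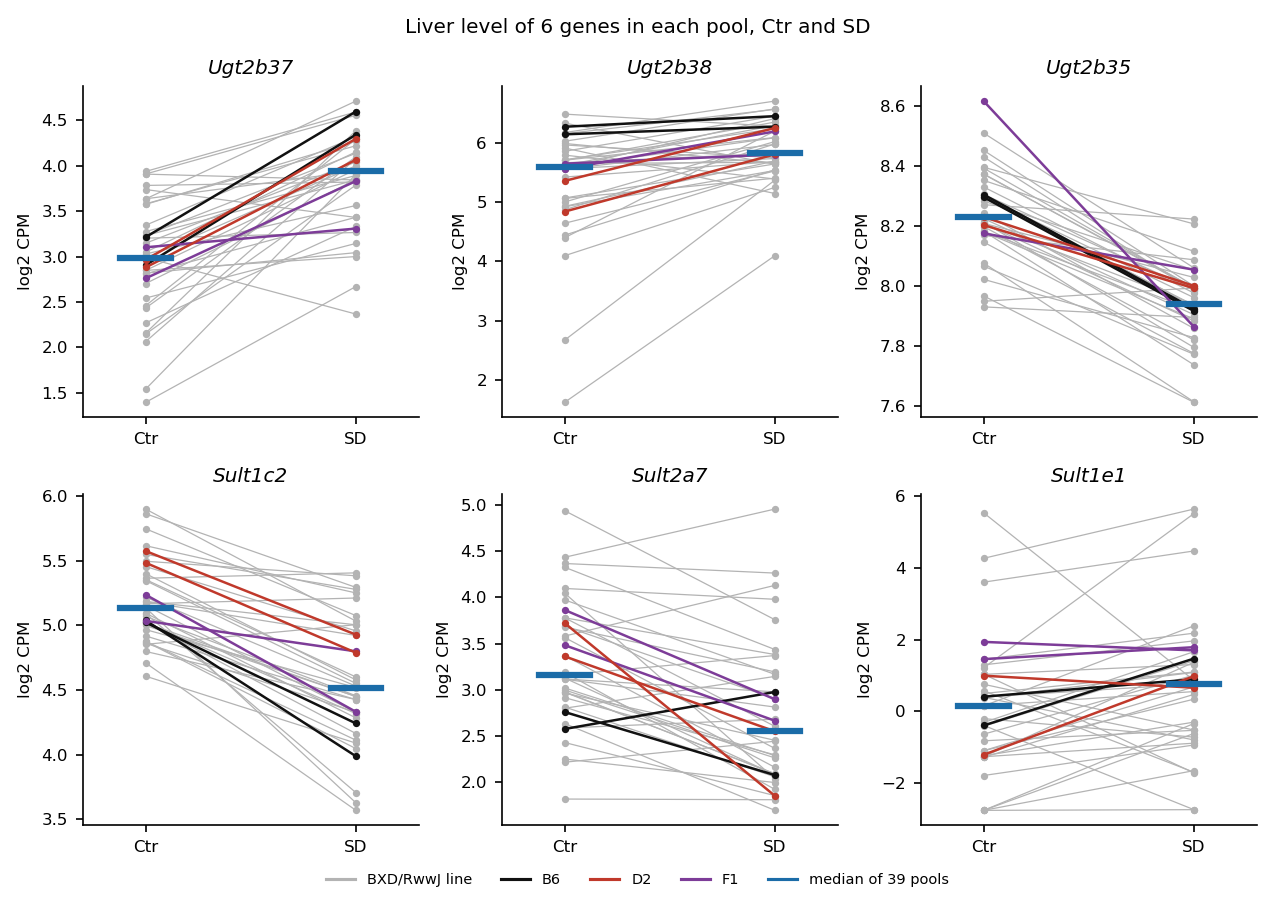
Level (log2 CPM, y axis) of 6 genes in each of the 39 liver pools, with a line from the Ctr to the SD pool of the same line or strain and a bar at the median of each condition. Ugt2b35 falls in 38 of 39 pools, the low Ctr pools of Ugt2b38 rise, and in Sult1e1 BXD71 and BXD100 cross over.

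The pools of a line resembled each other, so the response was also fitted with the line as a replicate block. Then 12 of the 45 genes were called, 5 higher and 7 lower, where 53.9% of all genes were. The 5 added genes were Sult1a1 (0.07 ± 0.02, adjusted p = 0.00690) and Sult1e1 (0.59 ± 0.25, adjusted p = 0.0443) with higher values, and Gstm5 (-0.09 ± 0.03, adjusted p = 0.0166), Gstt2 (-0.07 ± 0.03, adjusted p = 0.0297) and Sult5a1 (-0.11 ± 0.04, adjusted p = 0.00882) with lower ones, so 6 of 7 Sult genes were then called. With the library total as a covariate and no block 12 genes were called, 4 higher and 8 lower, where 48.8% of all genes were. All 7 genes of the fit without these terms were among them. With the block and the library total together 20 genes were called, 6 higher and 14 lower, and the share of all genes was not determined.

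Genes around the conjugation reactions were followed in lists of related function, to be read against the 44.2% of all genes called, 21.5% higher and 22.6% lower. Of 10 genes that make or handle UDP-glucuronic acid and PAPS, 1 was higher and 5 lower (median -0.08). The largest falls were in carriers of the Golgi and endoplasmic reticulum, namely the PAPS transporter genes Slc35b2 (-0.33 ± 0.03, adjusted p = 7.42e-15, lower in 38 of 39 pools) and Slc35b3 (-0.23 ± 0.03, adjusted p = 9.58e-09), and Slc35d1 (-0.22 ± 0.03, adjusted p = 2.51e-10), which carries UDP-sugars. Whether these carriers serve the enzymes followed here was not tested. The other falls were in the PAPS synthase gene Papss2 (-0.19 ± 0.03, adjusted p = 2.32e-06) and the sulfate transporter gene Slc26a1 (-0.11 ± 0.03, adjusted p = 0.000617), and Bpnt1, which removes the spent donor, was higher (0.14 ± 0.02, adjusted p = 4.34e-09). Of 16 measured genes of glutathione supply and Nrf2 targets, none was higher and 4 were lower (median -0.04), led by Nqo1 (-0.38 ± 0.09, adjusted p = 0.000119), Srxn1 (-0.31 ± 0.03, adjusted p = 6.35e-16, lower in 39 of 39 pools) and Gclc (-0.17 ± 0.03, adjusted p = 4.83e-06), the catalytic subunit of the enzyme that limits glutathione synthesis. Of 12 transporters of conjugates 1 was higher and 5 were lower (median -0.05), with Abcb1a at -0.62 ± 0.12 (adjusted p = 4.48e-06), Slco1a4 at -0.42 ± 0.13 (adjusted p = 0.00488) and Abcc1 at -0.25 ± 0.10 (adjusted p = 0.0322).

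Of 14 xenobiotic sensors and partners, 5 were higher and 2 lower (median -0.03), a share near that of all genes. Nr1i2, the PXR gene, was higher by 0.15 ± 0.03 (adjusted p = 5.43e-05) in 33 of 39 pools and Por, the electron donor of cytochromes P450, by 0.19 ± 0.04 (adjusted p = 0.000177). Nfe2l2 was lower by -0.10 ± 0.03 (adjusted p = 0.00271) and Esr1 by -0.30 ± 0.09 (adjusted p = 0.00651). Ahr (-0.13 ± 0.06, adjusted p = 0.110) and Nr1i3 (-0.09 ± 0.06, adjusted p = 0.224) did not pass the test. With the line as a replicate block Ahr and Nr1i3 were also past it (adjusted p = 0.0340 and 0.0210). Of 15 other conjugation enzymes 1 was higher and 2 were lower, Nat2 (-0.08 ± 0.02, adjusted p = 0.00453) and Inmt (-0.11 ± 0.04, adjusted p = 0.0120), and the fit blocked by line called 8 of the 15, where it called 53.9% of all genes. Of 7 measured deconjugating enzymes 2 were higher and 2 lower, among them Dpep1 (0.34 ± 0.13, adjusted p = 0.0325), Arsa (-0.09 ± 0.03, adjusted p = 0.0172) and Acy3 (-0.09 ± 0.03, adjusted p = 0.0216). Of the 4 clock output factors Tef (0.13 ± 0.05, adjusted p = 0.0226) and Hlf (0.12 ± 0.03, adjusted p = 0.00165) were higher.

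The antioxidant response element core TGACNNNGC, searched on both strands of the 250 upstream bases, was found in 3 of the 40 genes with a RefSeq promoter in the table and in 10.2% of all promoters there. The matches are shown with 12 bases on each side and the core in capitals, since these are the Gst genes for which the letters of an Nrf2 core were found. They lie at chr1:21240452-21240484, chr3:107895800-107895832 and chr3:107931723-107931755 in GRCm38.p6, each on the strand of its gene.
Gsta3: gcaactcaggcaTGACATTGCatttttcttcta
Gstm5: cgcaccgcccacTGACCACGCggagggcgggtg
Gstm7: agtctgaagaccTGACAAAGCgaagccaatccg
After SD the log2 fold changes were -0.02 for Gsta3, -0.09 for Gstm5 and 0.00 for Gstm7, and none passed the test without a further term. Gsta3 (-0.03, adjusted p = 0.00809) and Gstm5 (-0.10, adjusted p = 0.0415) were called lower with the library total as a covariate. The xenobiotic response element core GCGTG was found in 7 of the 40 genes (28.2% of all promoters), the E-box CACGTG in none (6.02%) and ACANNNTGT, a pair of glucocorticoid receptor sites, in Ugt1a7c alone (5.84%). These letters are a description of the sequence.

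The second comparison sets the parental strains against each other, over 4 pools a strain with condition as an additive term. D2 and B6 differed in 22 of 45 genes, 18 higher and 4 lower in D2, where 17.9% of all genes passed, 8.42% higher and 9.47% lower. In 17 genes the 4 pools of a strain did not overlap those of the other, 13 with D2 higher and 4 with D2 lower, where 16.5% of all genes showed no overlap, 7.71% with D2 higher and 8.75% with D2 lower. Read density moved with these values. In SD the B6 libraries held 7491781 and 7250062 reads and the D2 libraries 5785013 and 5690812, and the median of the 617 densest genes was 7.69 and 7.76 log2 CPM in B6 against 8.01 and 8.03 in D2. In Ctr these medians were 7.86 and 7.87 in B6 and 7.89 and 7.81 in D2. With the library total as a covariate 14 genes were called, 8 higher and 6 lower in D2, where 10.5% of all genes were, and 12 of them were among the 22. From Ctr pools alone 14 genes were called (9 higher, 5 lower), where 11.2% of all genes were, and from SD pools alone 30 (29 higher, 1 lower), where 24.2% were. Reads of both strains were aligned to the same mm9 reference, and whether sequence variants between the strains changed the assignment of reads was not tested. The strain differences described next are those of the named genes, and the library total is mentioned where it ended a call.

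Of the called strain differences, 5 were in the Ugt1a locus (mm9 chromosome 1, 89951963 to 90116577), which makes its enzymes from alternative first exons spliced to a common 3' part, so that 52.3% to 85.1% of the 100-base windows of these genes occur in another of them and their reads come from the exons that are not shared. Ugt1a10 stood at 0.94 and 1.29 log2 CPM in B6 Ctr, 0.99 and 1.54 in B6 SD, 3.79 and 3.59 in D2 Ctr, and 3.62 and 3.65 in D2 SD. Every D2 pool was above every B6 pool, by 2.47 ± 0.22 on average (adjusted p = 3.27e-06). Ugt1a9, a main phenol and drug conjugating form, stood at 5.53 and 5.53 in B6 Ctr, 5.22 and 5.34 in B6 SD, 6.54 and 6.44 in D2 Ctr and 6.70 and 6.65 in D2 SD, again without overlap, and differed by 1.18 ± 0.09 (adjusted p = 5.64e-07). Other first exons went the opposite way. Ugt1a5 was lower in D2 by -0.71 ± 0.11 (adjusted p = 0.000430), with 5.35, 5.45, 5.25 and 5.35 in the B6 pools and 5.01, 4.57, 4.56 and 4.42 in the D2 pools. Ugt1a6b was lower by -0.41 ± 0.09 (adjusted p = 0.00452) and Ugt1a1, the bilirubin-conjugating form, by -0.24 ± 0.07 (adjusted p = 0.0277), and neither overlapped. Ugt1a6a had a difference of -0.21 ± 0.08 (adjusted p = 0.0951) with no overlap of its pools. In the F1 hybrids Ugt1a10 lay between the parents, at 2.41 and 2.78 in Ctr and 2.42 and 2.26 in SD. Ugt1a9 and Ugt1a6b, which differed in opposite directions in the same libraries, had 0.492 and 0.489 reads per base.

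Ugt2b38 was lower in D2 by -0.72 ± 0.16 (adjusted p = 0.00543). The pools stood at 6.28 and 6.15 in B6 Ctr, 6.46 and 6.28 in B6 SD, 4.84 and 5.36 in D2 Ctr and 5.81 and 6.26 in D2 SD, so D2 was below B6 within each condition, by less in SD, where the second D2 pool reached the level of the B6 Ctr pools. The interaction did not pass the test (0.78 ± 0.24, adjusted p = 0.0795). From SD pools alone the difference did not pass the test (-0.33, adjusted p = 0.140), nor did it without a variance trend (adjusted p = 0.0780).

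All 10 Gst genes called were higher in D2. Gstm2, Gstm3 and Gstm4 kept the call with the library total as a covariate, the other 7 lost it, and Gsto1 was called lower in D2 (-0.29, adjusted p = 0.0116). Gsto2, an omega class enzyme that reduces dehydroascorbate, differed most, by 2.13 ± 0.48 (adjusted p = 0.00703), but on few reads: 0, 3, 4 and 4 in the B6 libraries and 11, 8, 18 and 10 in the D2 libraries. A fitted difference on so few reads depends on the prior count. It was not past the threshold in Ctr pools alone (2.36, adjusted p = 0.0853) or with the library total (2.24, adjusted p = 0.0702). In the mu class cluster (mm9 chromosome 3), Gstm3 stood at 6.83, 6.67, 6.34 and 6.30 in B6 and 7.27, 7.22, 7.48 and 7.43 in D2, a difference of 0.82 ± 0.10 (adjusted p = 7.14e-05). Gstm4 differed by 0.45 ± 0.07 (adjusted p = 0.000261) and Gstm2 by 0.41 ± 0.07 (adjusted p = 0.000703), and none of these 3 overlapped between strains. With the library total they differed by 0.54, 0.32 and 0.33 and stayed past the threshold.

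Of the Sult genes 4 were called, each higher in D2. Sult5a1 stood at 5.79, 5.31, 5.42 and 5.21 in B6 and 6.36, 6.26, 6.26 and 6.61 in D2 (0.94 ± 0.12, adjusted p = 5.91e-05), with no overlap. Sult1c2 stood at 5.02, 5.04, 4.24 and 3.99 in B6 and 5.58, 5.49, 4.93 and 4.79 in D2 (0.62 ± 0.10, adjusted p = 0.000690), where the Ctr pools of B6 reached the SD pools of D2 and each condition alone was separate. Sult1b1, which acts on thyroid hormone, differed by 0.35 ± 0.07 (adjusted p = 0.00166). Sult1a1 differed by 0.29 ± 0.08 (adjusted p = 0.0165) and was not past the threshold with the library total (0.12, adjusted p = 0.258), in Ctr pools alone (0.12, adjusted p = 0.331), without a variance trend (adjusted p = 0.0996), without B6 SD replicate 1 (0.23, adjusted p = 0.0565) or without D2 SD replicate 1 (0.23, adjusted p = 0.0692).

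**Figure D4:**
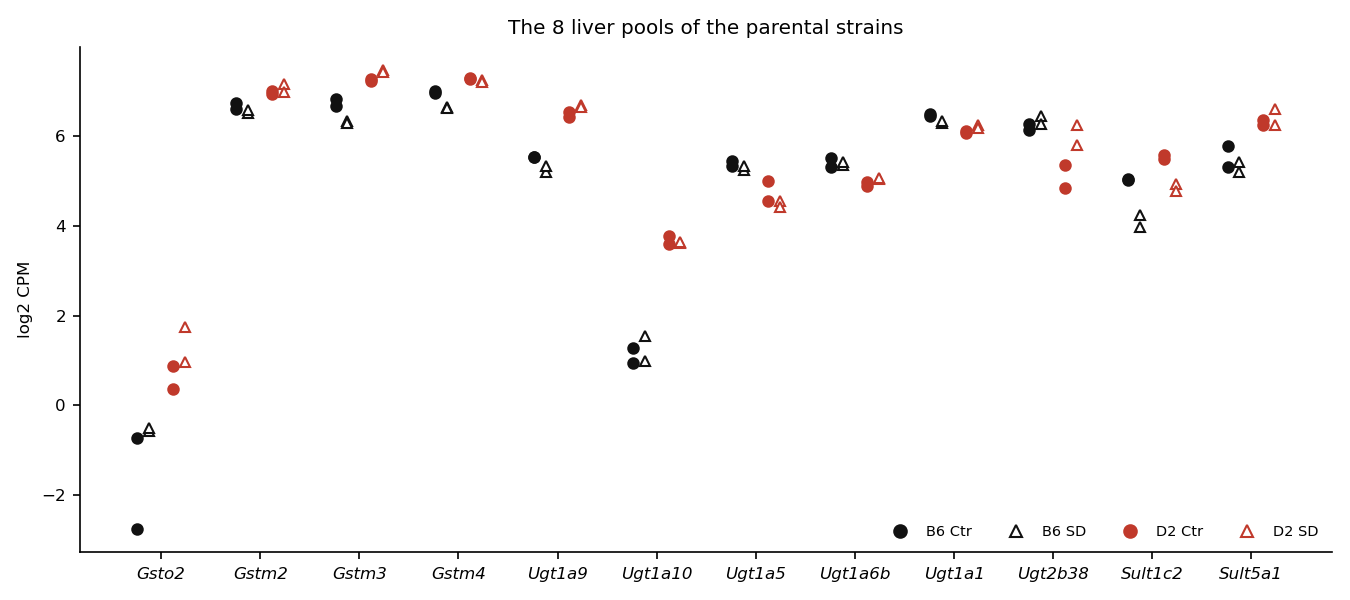
Level (log2 CPM, y axis) of 12 genes (x axis) in the 8 liver pools of the parental strains, B6 in black and D2 in red, Ctr as filled circles and SD as open triangles. Ugt1a10 and Ugt1a9 are higher in every D2 pool, Ugt1a5, Ugt1a6b and Ugt1a1 are higher in every B6 pool, and Ugt2b38 is lower in both D2 pools of each condition, by more in Ctr.

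Whether the response to SD differs between the strains was tested by the strain by condition interaction. It was called for 16 of 45 genes, 10 Gst and 6 Ugt genes, all with a larger value in D2, where 7.19% of all genes were called, 5.44% in this direction and 1.75% in the other. Gstm3 changed by -0.43 in B6 and 0.21 in D2 (interaction 0.64 ± 0.09, adjusted p = 0.0189), and Ugt1a9 by -0.26 and 0.19 (0.44 ± 0.11, adjusted p = 0.0394). Among the 617 densest genes 62.1% were called, each with the larger value in D2 (median interaction 0.34), and 10 of the 13 densest Gst, Ugt and Sult genes were. From Ctr to SD the B6 library totals rose, from 6732104 and 6584349 to 7491781 and 7250062 reads. The D2 totals fell, from 6547019 and 6848193 to 5785013 and 5690812 reads. The part of these totals in the interaction was not tested. With the total as a covariate none of the 45 and none of all genes was called, and 2 of the 45 and 893 of all genes had an unadjusted p under 0.05. The SEs of the 16 genes were then 0.18 to 0.47, against 0.07 to 0.11 before. Gstm3 (0.86 ± 0.39), Gsta4 (0.59 ± 0.38), Gsto1 (0.42 ± 0.35) and Gstm6 (0.40 ± 0.31) kept values near or above those without the covariate, while the others were lower, down to -0.18 ± 0.21 in Ugt2b34. Without B6 Ctr replicate 1 or D2 SD replicate 2 none of the 45 was called, 1 was without B6 Ctr replicate 2 or B6 SD replicate 1, and 8 were without D2 Ctr replicate 2. For Ugt1a9 the test missed the threshold in 7 of the 8 fits that left out a library (adjusted p up to 0.126). None of the 7 genes called for SD was among the 16.

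The spread between lines was tested as a line effect over the 66 BXD/RwwJ libraries. It was called for 43 of 45 genes (all but Ugt1a2 and Ugt1a7c, which have under 1 CPM per kilobase), where 59.0% of all genes were called, and for 95.6% of the 617 densest genes. With the library total as a covariate 39 of 45 were called, where 44.5% of all genes were. The strongest line effects were those of the Ugt1a forms: F was 30.1 for Ugt1a9 (adjusted p = 1.18e-16), 19.2 for Ugt1a6b, 18.3 for Ugt1a10 and 13.99 for Ugt1a1, followed by Sult5a1 with 11.5. Their intraclass correlations, the share of variance between lines over the Ctr and SD pools, were 0.94, 0.93, 0.91, 0.88 and 0.83, against a median of 0.64 over the 45 genes. By size of spread the order was different. Of genes with a mean of at least 0 log2 CPM, the standard deviation over the 33 lines in Ctr was largest among Ugt genes in Ugt2b38 (1.00), Ugt1a10 (0.86) and Ugt2b37 (0.66), among Sult genes in Sult2a7 (0.71), Sult5a1 (0.37) and Sult1c2 (0.32), and among Gst genes in Gstp2 (0.65), Gsta1 (0.54) and Gsta2 (0.31). The median was 0.166 for the genes described here and 0.183 for all genes.

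Ugt1a9 was set against the parents first. Over the 33 lines it ran from 4.98 (median 5.75) to 6.59 log2 CPM in Ctr, and 13 lines lay above and 20 below the midparent value of 6.01, the mean of the B6 and D2 means. All 33 lines were on the same side in SD. In Ctr 10 lines lay under all 4 parental pools and 2 above them. The lines on the same side of the midparent value in both conditions numbered 32 for Ugt1a6b and Ugt1a1, 31 for Ugt1a6a, 30 for Ugt1a10 and 26 for Ugt1a5. Most of these forms also divided the same lines. The 13 lines above the midparent value of Ugt1a9 were the 13 lines below that of Ugt1a6b and of Ugt1a6a, and were 13 of the 14 lines below that of Ugt1a1. Of the 12 lines above the midparent value of Ugt1a10, 12 were among these 13. Ugt1a5 followed this less: 2 of the 13 lines lay above and 6 of the other 20 below its midparent value. The sparsely read Ugt1a2 and Ugt1a7c had 8 and 11 of the 13 above theirs. Genotypes of the lines at the locus were not used here, and an effect of sequence variants on the assignment of reads was not tested in the lines either. The forms share libraries, and Ugt1a9 with Ugt1a10 and Ugt1a6a with Ugt1a6b share sequence, so these are not independent observations.

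**Figure D5:**
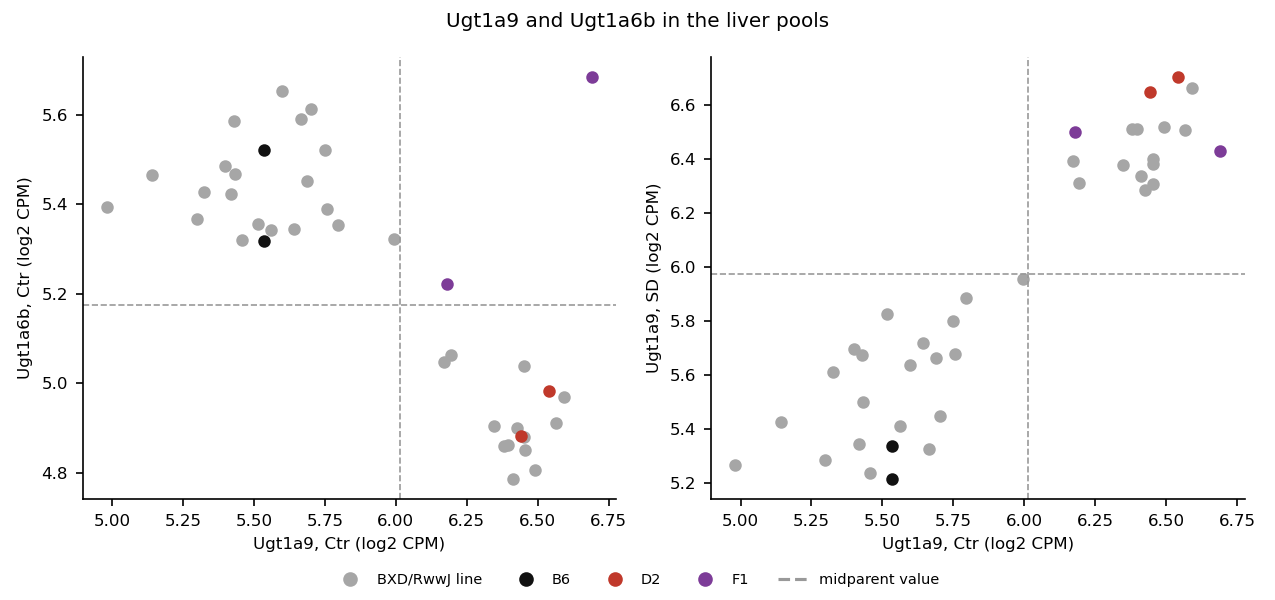
Left, Ugt1a6b against Ugt1a9 in Ctr liver pools, and right, Ugt1a9 in SD against Ugt1a9 in Ctr (all axes in log2 CPM), with 1 point per pool and dashed lines at the midparent values. The 13 lines high in Ugt1a9 are low in Ugt1a6b and lie beside the D2 pools, and all 33 lines keep their side after SD.

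Other genes were spread by a few lines. The spread of Ugt2b38 over lines was 1.00 in Ctr and 0.52 in SD, with Ctr values from 1.62 in BXD71 (median 5.60) to 6.49 in BXD64, and 6 of 33 lines lay under all 4 parental Ctr pools and 2 above them. Gstp2, a pi class gene that shares 57.7% of its 100-base windows with Gstp1 and is uncertain for that reason, ran from 2.10 in BXD51 (median 3.77) to 5.21 in BXD49, and BXD49 was highest after SD too, with 5.12. Gsta1 (81.8% of windows in another gene) ran from 0.80 in BXD101 (median 1.96) to 3.01 in BXD71, and Gsta2 (24.8%) from 4.87 in BXD101 (median 5.52) to 6.19 in BXD51. Sult2a7, for which shared windows were not determined, ran from 1.82 in BXD55 (median 3.13) to 4.94 in BXD81.

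Sult1e1, the estrogen sulfotransferase, was singled out after its values were seen, since its mean is under the limit used for line spread. It was near the floor in most pools, with a median of 6 reads in Ctr and 10 in SD and with 0 reads in 4 Ctr and 2 SD pools, yet it reached 5.54 log2 CPM (317 reads) in BXD71, 4.27 (125 reads) in BXD66 and 3.60 (86 reads) in BXD97 in Ctr. After SD BXD66 (5.64) and BXD97 (4.47) stayed high, BXD71 went to 0.86 (11 reads) and BXD100 went from 1.21 (16 reads) to 5.52 (314 reads). Its standard deviation over lines was 1.90 in Ctr, 2.00 in SD and 1.77 for the change. BXD71 in Ctr was thus at once the highest pool for Sult1e1 and Gsta1 and the lowest for Ugt2b37 and Ugt2b38. A pool holds RNA of up to 3 mice, and whether 1 mouse or all of them carried such a level cannot be told apart.

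In cerebral cortex, collected from the same set of mice and read to 18995492 to 28998853 counts in Ctr and 19025159 to 28685060 in SD, 20 genes of these families were listed, 18 of them also in liver. Whether the cortex and liver pools of a line hold the same individual mice is not stated. SD changed 11 of 20, 1 higher and 10 lower, where 68.4% of all cortex genes were called, 33.0% higher and 35.4% lower. Sult1a1 was the gene that rose, in 39 of 39 pools, from a range of 1.91 to 2.84 log2 CPM (median 2.52) in Ctr to 2.41 to 4.27 (median 3.21) in SD, by 0.84 ± 0.08 (adjusted p = 4.75e-17), and the ranges overlapped. The largest falls were those of Gstt2 (-0.56 ± 0.05, adjusted p = 1.15e-17), Gsto2 (-0.51 ± 0.11, adjusted p = 1.51e-05) and Gstm4 (-0.43 ± 0.04, adjusted p = 2.29e-18). Gstz1 fell in 39 of 39 pools (-0.33 ± 0.03, adjusted p = 2.84e-16). Sult4a1, the brain sulfotransferase that is listed in cortex and not in the liver tables, had a median of 8.95 in Ctr and changed by -0.05 ± 0.02 (adjusted p = 0.00691). The responses of the tissues were compared on the change of each pool in liver minus that in cortex, paired by line or parental pool. They differed in 11 of 18 genes, 9 with the larger value in liver, where 57.6% of all genes differed, 28.0% with liver higher and 29.6% with liver lower. Gstm5, Gsto2 and Gstt3 were not past the threshold without this pairing. For Sult1a1 liver minus cortex was -0.77 ± 0.07 (adjusted p = 2.09e-13) and for Gstt2 0.49 ± 0.05 (adjusted p = 2.13e-11). Sult1a1 was read at 0.769 reads per base in liver, in the range where 20.6% of all liver genes were called for SD.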

How the data were processed

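Per the methods of the study, stranded mRNA libraries of pooled RNA were read single-end, aligned to mm9 with STAR, counted on RefSeq genes with htseq-count (union mode, reverse strand), dropped below a mean count of 10 and scaled by TMM. The values the authors deposited are log2 CPM. Each value was turned back into reads, which came out whole in 100% of cases at a tolerance of 0.02, and these gave library totals and read density. Differences were fitted with limma 3.58.1 in R 4.3.3 (eBayes with a variance trend, Benjamini-Hochberg over all listed genes, adjusted p under 0.05). The study used voom weights, here an alternative. Each pool counted once. Same-line Ctr and SD pools correlated at 0.169 or more in liver after removal of condition means (median 0.475), against -0.018 for other lines, so the line pairs them. The fits were also run on simulated data, in which reads rose in proportion to the library total. Pools of a line were independent there in the SD and strain fits. These runs could not show an effect of read density or of the pairing by line. Gene positions and exonic lengths came from GENCODE vM1 (mm9, 93.7% of symbols matched), promoters from RefSeq (GRCm38.p6). Named were, per family, the 5 highest genes in Ctr, up to 4 with the largest called SD change, up to 4 with the largest called strain difference and up to 3 with the largest line spread at a mean of at least 0 log2 CPM, and up to 3 called genes per other list, with Nfe2l2, Nr1i2, Nr1i3 and Ahr. Of the genes this rule gives, 2 of the other lists are not reported here. Genes outside this rule are named where a count or comparison turns on them. The genes, lists, tests and alternatives were chosen with earlier results of these data known. P-values measure the spread between pools.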

Additional observations from a re-analysis of the deposited data

Results flagged for a closer look

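The SD response differed between the parental strains, by the test of the interaction, in 16 genes. The difference (change in D2 minus change in B6, log2) was 0.363 in Gsta3, 0.419 in Gsta4, 0.444 in Gstm1, 0.638 in Gstm3, 0.451 in Gstm6, 0.385 in Gstm7, 0.432 in Gsto1, 0.449 in Gstp1, 0.418 in Gstt1 and 0.294 in Gstz1, and 0.445 in Ugt1a9, 0.391 in Ugt2b1, 0.303 in Ugt2b34, 0.413 in Ugt2b36, 0.378 in Ugt2b5 and 0.403 in Ugt3a2. With the library total as a covariate none of them stayed past the threshold, at SEs of 0.18 to 0.47. The difference was then 0.856 in Gstm3, 0.587 in Gsta4, 0.417 in Gsto1 and 0.396 in Gstm6, and between -0.175 and 0.172 in the other 12.

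The SD response differed between liver and cortex in 11 genes. The difference (liver minus cortex, log2) was 0.351 in Gstm2, 0.316 in Gstm4, -0.0989 in Gstm5, 0.258 in Gsto1, 0.567 in Gsto2, 0.134 in Gstp1, 0.226 in Gstt1, 0.488 in Gstt2, 0.188 in Gstt3, 0.319 in Gstz1 and -0.770 in Sult1a1. In 9 of these genes the cortex value was the lower of the pair, and in Sult1a1 and Gstm5 the higher. In the limma fit without pairing Gstm5 (adjusted p = 0.129), Gsto2 (adjusted p = 0.0636) and Gstt3 (adjusted p = 0.114) were not past the threshold. Gsto2 had 7.22 reads per liver library on average. Gstz1, Gstp1 and Gstt1 had 1.10, 0.896 and 0.630 reads per base in liver. The part of read density in their differences was not tested. The parental strains hold 2 pools per condition and the tissues 39, and no single pool was tested as standing apart.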

How the results depend on the processing

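The count of genes called after SD in liver (7) went to 12 with the line as a replicate block, to 13 with voom and that block, to 12 with the library total as a covariate and to 20 with both, and lay between 6 and 8 under the other alternatives, leaving out BXD71 included. Of all liver genes, 53.9% were called with the line as a replicate block and 48.8% with the library total. The strain difference (22 genes) went to 14 in Ctr pools alone, to 12 without a variance trend and to 14 with the library total, and lay between 15 and 24 with 1 library left out. Of all liver genes, 11.2% were called in Ctr pools alone and 10.5% with the library total. With pool number as a replicate block 21 genes were called. The interaction (16 genes) went to 23 with median-centred libraries, to 0 with the library total and lay between 0 and 17 with 1 library left out, and 8 were called without D2 Ctr replicate 2. With pool number as a replicate block it was 14. With the library total the interaction of Ugt1a9 turned from 0.445 to -0.0568 and that of Gstm3 went from 0.638 to 0.856, neither past the threshold. Line effects lay between 39 and 43 genes, cortex calls between 9 and 16 (16 with the line as a replicate block) and tissue differences between 8 and 11. Ugt2b37 lost its line effect without BXD71 (adjusted p = 0.0715). Fits with the library total or without BXD71 were added after the data were seen. For the alternatives in which a count moved, the cause was not tested. Where no share of all genes is given here or above, it was not determined, and the count cannot be set against it.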
